A study of Mus musculus with 4 samples.

Results

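Expression of 10 genes that encode cytokines of macrophages or their antagonists was examined in bone marrow-derived macrophages (BMDM). The genes were Il1a, Il1b, Il1rn, Il6, Il10, Il12b, Tnf, Tgfb1, Il15 and Osm, taken by symbol from the 16375 genes listed, and all 10 were found. BMDM were cultured from bone marrow cells of C57BL/6 mice with macrophage colony-stimulating factor, and were kept with or without butyrate, a short-chain fatty acid made by gut bacteria that inhibits histone deacetylases. WT and LNCKO cells each gave a control library and a butyrate library, which makes 4 groups of 1 RNA library, collected at 24 h, and the dose of butyrate was 500 µM. LNCKO is read here as the line in which lncLy6c, a long noncoding RNA, was deleted in the germ line with CRISPR-Cas9. The study followed a path from butyrate through lncLy6c and RUNX3 to NR4A1 and ZFP36, a protein that promotes decay of cytokine mRNAs. The comparisons therefore address whether cytokine mRNAs differ with butyrate and whether they do so alike in both genotypes.

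IL-1α and IL-1β, encoded by Il1a and Il1b, signal through the same receptor, and IL-1 receptor antagonist, encoded by Il1rn, occupies that receptor without signalling. IL-6 and oncostatin M share the receptor subunit gp130, TNF is a main inflammatory cytokine, and the product of Il12b is a subunit of both IL-12 and IL-23. IL-10 and TGF-β1 restrain macrophage activation, and IL-15 sustains NK cells and memory T cells. Many cytokine mRNAs are made on demand under NF-κB and are removed rapidly through AU-rich elements in their 3′ untranslated regions.

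With 1 library per group, none of the differences has a replicate check, no p-value was computed, and a difference between libraries cannot be told apart from a difference between cultures or mice. Mice of the study were young and male or female, but the number, age and sex of the donors of each culture were not given in the sources used here. Library totals recovered from the values ranged from 53363944 to 65521713 fragments. Macrophage markers were high in all 4 libraries, with 10 of 10 above 0 and 9680 to 20400 fragments per 1000000 in sum. Lyz2 made up most of that range, from 4340 in LNCKO butyrate to 14300 in WT butyrate, and the other 9 summed to 5330 to 6110. Markers of B cells (1160 to 1470 per 1000000) and of granulocytes and their precursors (6010 to 8120 per 1000000) were present too. In such bulk samples, fewer cells of a type and less RNA per cell cannot be told apart. The sum of 4 Y-linked genes was 15373 and 20182 fragments for LNCKO but 203 and 132 for WT, and the genotype cannot be told apart from the sex of the donors. The names of both LNCKO libraries do not spell their conditions, lncLy6c was not among the genes listed, and the deletion could not be checked.

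To compare genes with one another, fragments were divided by the length of the exons of each gene and scaled to 1000000 fragments of the library (exon-length level). Exons of all annotated transcripts of a gene were merged for this length, which was 5042 bases for Tgfb1 and 1907 for Il1b. The order of genes thus also depends on which transcripts were present, which counting intervals do not cover. Tgfb1 and Il1b had the highest levels of the 10 cytokines. The exon-length level of Tgfb1 was 49.5 without and 44.8 with butyrate in WT, and 50.8 and 47.7 in LNCKO, and that of Il1b was 42.7, 55.4, 53.4 and 58.4 in the same order. By this length, Tgfb1 stood first in WT control and Il1b stood first in the other 3 libraries, and their counting intervals did not overlap in any library. In fragments, Tgfb1 was above Il1b in each library, with 13383 to 15764 against 4587 to 7291. Il15 and Osm followed in exon-length level. Il15 was above Osm in both WT libraries and Osm above Il15 in both LNCKO libraries, although their intervals overlapped in LNCKO butyrate. Il1rn came next in each library, with exon-length levels from 8.88 to 11.5, and then Tnf, with 6.72 to 8.97. Intervals of Il1rn and Tnf overlapped in LNCKO control, those of Tnf and Il10 in WT butyrate, and those of Il10 and Il12b in WT control. Il6 and Il1a were lowest throughout, with levels from 0.571 to 2.19 for Il6 and from 0.673 to 0.873 for Il1a, and their order was reversed in WT butyrate, where their intervals overlapped. If fragments from introns were counted, which the sources used here do not say, levels of genes with long introns are too high, and the exons of Il15 make up only 3.16% of its span.

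**Figure D1:**
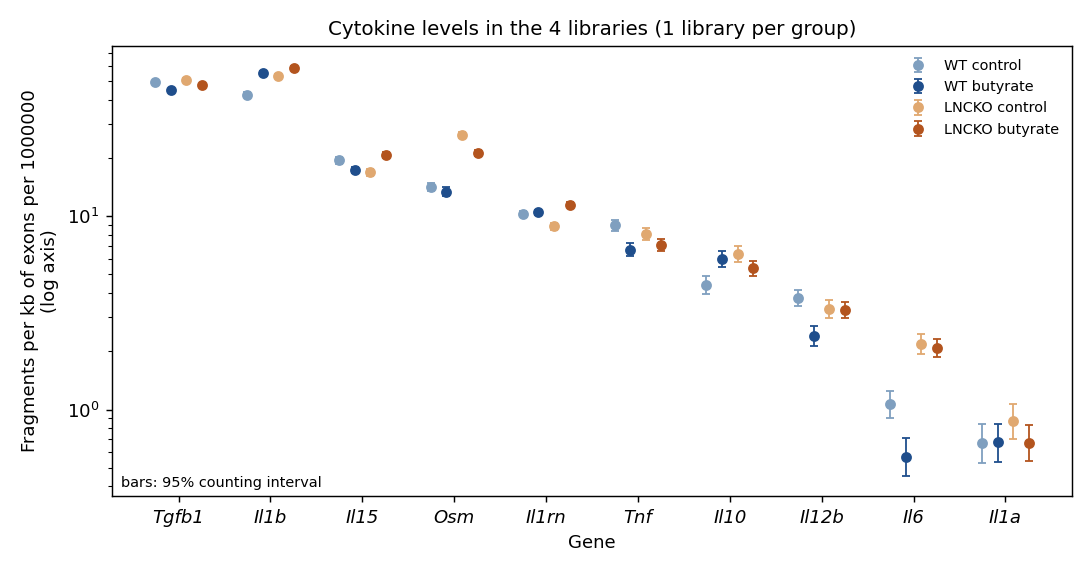
Exon-length levels of the 10 cytokines (fragments per kb of exons per 1000000 fragments, log axis) in the 4 libraries, 1 point per library with exact Poisson 95% intervals, which cover counting error only. Levels run from 0.571 for Il6 in WT butyrate to 58.4 for Il1b in LNCKO butyrate, and the points of Il6 and Osm lie higher in both LNCKO libraries than in both WT libraries.

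Il6 showed the largest difference between libraries of the 10 genes. Il6 (ENSMUSG00000025746) lies on chromosome 5 of GRCm38, from 30013114 to 30019981 on the + strand. Its FPKM was 0.377 without and 0.202 with butyrate in WT, and 0.775 and 0.738 in LNCKO, from 146, 82, 284 and 332 fragments. Both LNCKO libraries were above both WT libraries, and WT butyrate was the lowest of the 4. With butyrate, Il6 was 1.87-fold lower in WT, a log2 ratio of -0.90 (95% counting interval -1.31 to -0.50), and in LNCKO the log2 ratio was -0.07 (-0.30 to 0.16). Compared with WT, Il6 was 2.06-fold higher in LNCKO without butyrate (1.68 to 2.53) and 3.66-fold higher with butyrate (2.86 to 4.72). The counting intervals are exact Clopper-Pearson intervals of the ratio of fragments and leave out all variation between cultures. As the level was low, adding 1 to each FPKM brought the log2 ratio with butyrate in WT to -0.20 and those of LNCKO to WT to 0.37 and 0.53, all under 1.5-fold.

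Il12b and Tnf were lower with butyrate in WT as well. The FPKM of Il12b (ENSMUSG00000004296, chromosome 11, 44400063 to 44414033, + strand) was 0.534 without and 0.336 with butyrate in WT, and 0.468 and 0.462 in LNCKO, from 278 to 423 fragments. WT butyrate was again the lowest library, and the other 3 lay close to one another. Il12b was 1.59-fold lower with butyrate in WT, a log2 ratio of -0.67 (-0.89 to -0.45), against -0.02 (-0.23 to 0.19) in LNCKO. Adding 0.1 to each FPKM brought the WT ratio to -0.54, under 1.5-fold. Tnf (ENSMUSG00000024401, chromosome 17, 35199381 to 35202007, - strand) had an FPKM of 5.6, 4.19, 5.07 and 4.42 in the order WT without and with butyrate and LNCKO without and with butyrate, from 652 to 829 fragments. Both butyrate libraries were lower than both controls, by a log2 ratio of -0.42 (-0.57 to -0.27) in WT and -0.20 (-0.35 to -0.05) in LNCKO. For Tnf the ratio of LNCKO to WT was 0.906 without butyrate and 1.05 with butyrate, and the log2 intervals of both held 0. Dendritic cell markers, which mark another source of Il12b, were also lower with butyrate in WT in 4 of 5 cases with a median log2 ratio of -0.34, and in LNCKO in 5 of 5 with -0.10. Their sum was 104 fragments per 1000000 in WT butyrate and 121 to 136 in the other libraries, with none of the 5 at 0 in any library, and their part in the result was not tested.

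The promoters of these 3 genes are shown, from 250 bases before to 50 after the start site in RefSeq (GRCm38.p6). These genes were chosen by outcome, as those with the 3 lowest log2 ratios with butyrate in WT. Tgfb1 (-0.14) and Il15 (-0.17) were lower in WT too. Capitals mark matches on either strand to a motif of NF-κB and to TTNNGNAA of C/EBP, GAGGAA of PU.1 and TATAAA of the TATA box, and overlapping matches would merge.
Il6, chr5:30012864-30013163, + strand: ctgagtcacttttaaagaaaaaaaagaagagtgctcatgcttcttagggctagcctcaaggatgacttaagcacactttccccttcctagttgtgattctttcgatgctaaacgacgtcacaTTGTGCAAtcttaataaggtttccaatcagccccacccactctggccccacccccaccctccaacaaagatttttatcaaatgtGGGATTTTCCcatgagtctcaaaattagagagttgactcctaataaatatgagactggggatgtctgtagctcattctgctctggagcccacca
Il12b, chr11:44399813-44400112, + strand: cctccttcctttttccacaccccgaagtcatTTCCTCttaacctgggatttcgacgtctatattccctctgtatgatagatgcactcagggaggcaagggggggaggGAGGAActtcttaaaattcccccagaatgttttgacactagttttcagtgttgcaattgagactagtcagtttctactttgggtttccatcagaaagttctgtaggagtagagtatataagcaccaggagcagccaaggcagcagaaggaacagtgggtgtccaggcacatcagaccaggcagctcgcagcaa
Tnf, chr17:35201958-35202257, - strand: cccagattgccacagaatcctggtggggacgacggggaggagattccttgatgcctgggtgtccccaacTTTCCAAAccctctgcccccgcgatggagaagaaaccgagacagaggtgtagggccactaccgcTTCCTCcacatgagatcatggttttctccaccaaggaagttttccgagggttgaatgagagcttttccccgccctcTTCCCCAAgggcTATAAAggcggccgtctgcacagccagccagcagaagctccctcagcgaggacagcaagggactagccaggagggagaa

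Letters of the NF-κB motif were found in the Il6 window from -44 to -35 and in 2 of 3 Il1rn windows, and in 4.79% of all 32851 promoters. The C/EBP letters were found in the windows of Il6, Tnf, Il1a and Il1b and in 2 of Il1rn, and in 40.7% of all promoters. PU.1 letters were held by Il1a, Il12b and Tnf (28.3% of all promoters), and those of the TATA box by Il1a, Il1b, Tnf and 1 window of Il1rn (13.6%). The AP-1 letters TGANTCA were found in Il6, Il1a and 1 window of Il1rn (7.81%). The letters TGNGGT, with any base at N, take in the sites of RUNX proteins but also other letters. They were held by 1 Il1rn window of the 9 windows of 7 cytokines, against 45.8% of all promoters, and neither value is a share of RUNX sites. None of the 9 held the STAT letters TTCNNNGAA (8.3%). Il10, Il15 and Osm were not matched. A match describes letters in the window and not a bound site.

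In the IL-1 family, the agonist Il1b was higher with butyrate in both genotypes, while the antagonist Il1rn was higher with butyrate in LNCKO and differed little in WT. Il1b (ENSMUSG00000027398, chromosome 2, 129364570 to 129371139, - strand) had an FPKM of 12.4 without and 16.1 with butyrate in WT, and 15.5 and 16.9 in LNCKO. WT control was the lowest library, with 4587 fragments against 5433 to 7291 in the others. Il1b was 1.3-fold higher with butyrate in WT (1.25 to 1.35) and 1.09-fold higher in LNCKO (1.06 to 1.13), and 1.25-fold higher in LNCKO than in WT without butyrate (1.2 to 1.3). Il1rn (ENSMUSG00000026981, chromosome 2, 24336853 to 24351494, + strand) had an FPKM of 3.91, 3.95, 3.36 and 4.35 in the order WT without and with butyrate and LNCKO without and with butyrate. It differed little in WT, with a log2 ratio of 0.02 (-0.05 to 0.09), and was 1.3-fold higher with butyrate in LNCKO (1.23 to 1.36), where the control library was the lowest of the 4. Within a library, the exon-length level of Il1rn was 0.242 times that of Il1b in WT control (0.232 to 0.254), 0.189 in WT butyrate (0.181 to 0.197), 0.166 in LNCKO control (0.159 to 0.174) and 0.197 in LNCKO butyrate (0.19 to 0.205). On this measure the antagonist was below the agonist Il1b in each library, and the ratio was lower with butyrate in WT and higher with butyrate in LNCKO. The size of the ratio depends on the exon lengths, 5535 bases for Il1rn and 1907 for Il1b, but its order between libraries does not. Relative to the agonist Il1a, which had few fragments, the level of Il1rn was 15.3 without and 15.5 with butyrate in WT, and 10.2 and 17.1 in LNCKO.

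Il1a (ENSMUSG00000027399, chromosome 2, 129299610 to 129309972, - strand) had 75, 79, 92 and 87 fragments in the order WT without and with butyrate and LNCKO without and with butyrate, a mean under the minimum of 100 that was set for counts of genes. Its FPKM was 0.128 in WT control and LNCKO butyrate, 0.129 in WT butyrate and 0.166 in LNCKO control. All 4 counting intervals of its log2 ratios held 0, so a difference was not detectable at this depth. Exons of antisense genes overlap those of Il1a (Gm14023) and Il1b (Il1bos) on the opposite strand, and whether the counting used strand is not given in the sources used here, so their fragments cannot be told apart from those of the antisense genes.

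The IL-1 receptors are Il1r1, which signals, Il1rap, its accessory chain, and Il1r2, a decoy that binds IL-1 without signalling. Il1r2 had an exon-length level 77.9 times that of Il1r1 in WT control (65.7 to 93.1), and the ratio was 109 in WT butyrate (92.1 to 130), 84.2 in LNCKO control (70.9 to 101) and 100 in LNCKO butyrate (86.5 to 117). Il1r2 was 1.33-fold higher with butyrate in both genotypes, with log2 ratios of 0.42 (0.35 to 0.48) in WT and 0.41 (0.35 to 0.47) in LNCKO. For Il1r1, with 135 to 185 fragments, the log2 ratios of -0.07 in WT and 0.16 in LNCKO had intervals that held 0. Il1rap had log2 ratios of -0.10 (-0.21 to 0.00) in WT and 0.15 (0.03 to 0.26) in LNCKO.

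Il10 and Tgfb1 encode cytokines that restrain macrophages. Il10 (ENSMUSG00000016529, chromosome 1, 131019845 to 131024974, + strand) had an FPKM of 1.13 without and 1.53 with butyrate in WT, and 1.64 and 1.37 in LNCKO, from 326, 466, 448 and 462 fragments. WT control was the lowest library, and LNCKO control the highest. With butyrate, Il10 was 1.36-fold higher in WT (1.18 to 1.57) and 1.19-fold lower in LNCKO, a log2 ratio of -0.25 (-0.44 to -0.06). Without butyrate it was 1.45-fold higher in LNCKO than in WT (1.26 to 1.68), and with butyrate the log2 ratio of LNCKO to WT was -0.16 (-0.35 to 0.03). Relative to Il12b, the exon-length level of Il10 was 1.16 without butyrate (1.0 to 1.35) and 2.52 with it (2.16 to 2.93) in WT, and 1.93 without (1.67 to 2.22) and 1.64 with it (1.43 to 1.88) in LNCKO. Relative to Tnf it was 0.492, 0.894, 0.788 and 0.76 in the same order. Both ratios were lowest in WT control and highest in WT butyrate, but relative to Tnf the interval in WT butyrate (0.792 to 1.01) overlapped those of both LNCKO libraries (0.699 to 0.889 and 0.675 to 0.854).

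Tgfb1 (ENSMUSG00000002603, chromosome 7, 25687002 to 25705077, + strand) was the steadiest of the 10 genes. Its FPKM was 13.8 without and 12.5 with butyrate in WT, and 14.2 and 13.3 in LNCKO, from 13383 to 15764 fragments. It was lower with butyrate by a log2 ratio of -0.14 (-0.18 to -0.11) in WT and -0.09 (-0.12 to -0.06) in LNCKO, beside medians of -0.056 and -0.023 over all genes tested. The ratio of LNCKO to WT was 1.03 without butyrate and 1.06 with butyrate.

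Il15 (ENSMUSG00000031712, chromosome 8, 82331632 to 82403222, - strand) had an FPKM of 0.615 without and 0.548 with butyrate in WT, and 0.532 and 0.658 in LNCKO, from 2034 to 3087 fragments. The order of treated and control libraries was opposite in the genotypes. With butyrate, Il15 was 1.12-fold lower in WT, a log2 ratio of -0.17 (-0.25 to -0.08), and 1.24-fold higher in LNCKO (1.17 to 1.31). Il15ra, which presents IL-15 to neighbouring cells, had log2 ratios of -0.09 (-0.18 to 0.01) in WT and 0.39 (0.30 to 0.48) in LNCKO.

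Osm differed by genotype more than by butyrate. Osm (ENSMUSG00000058755, chromosome 11, 4236420 to 4241026, + strand) had an FPKM of 6.96 without and 6.63 with butyrate in WT, and 13.0 and 10.5 in LNCKO, from 1807, 1807, 3188 and 3175 fragments. Both LNCKO libraries were above both WT libraries. Osm was 1.86-fold higher in LNCKO than in WT without butyrate (1.76 to 1.98) and 1.59-fold higher with butyrate (1.5 to 1.68). With butyrate it was 1.23-fold lower in LNCKO, a log2 ratio of -0.30 (-0.37 to -0.23), and in WT the log2 ratio was -0.07 (-0.17 to 0.03).

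Across the cytokines, in WT 2 of the 10 (Il6 and Il12b) were lower by at least 1.5-fold with butyrate and 0 were higher, where 2.92% of the 11076 genes tested were lower and 3.3% higher by that fold. In LNCKO, 0 of the 10 passed 1.5-fold in either direction, where 0.885% of the genes tested were lower and 1.64% higher. None of the 10 passed 2-fold with butyrate in either genotype, a fold passed by 0.686% of genes downwards and 1.01% upwards in WT and by 0.271% and 0.677% in LNCKO. The median log2 ratio of the 10 was -0.11 in WT and -0.08 in LNCKO, and that of the 9 with a mean of at least 100 fragments was -0.14 and -0.07, beside -0.056 and -0.023 over all genes tested. In WT the counting interval lay above 0 for 2 of the 10, below 0 for 5 and held 0 for 3, and in LNCKO the numbers were 3, 4 and 3. The difference of the butyrate log2 ratio between the genotypes (WT minus LNCKO) was -0.83 for Il6 with a counting SE of 0.231, 0.70 for Il10 (0.141), -0.65 for Il12b (0.153), -0.47 for Il15 (0.059) and -0.36 for Il1rn (0.050). It was 0.38 for Il1a (0.317), 0.25 for Il1b (0.038), 0.23 for Osm (0.06), -0.22 for Tnf (0.107) and -0.05 for Tgfb1 (0.024). With 1 library in each group, this difference could not be tested.

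**Figure D2:**
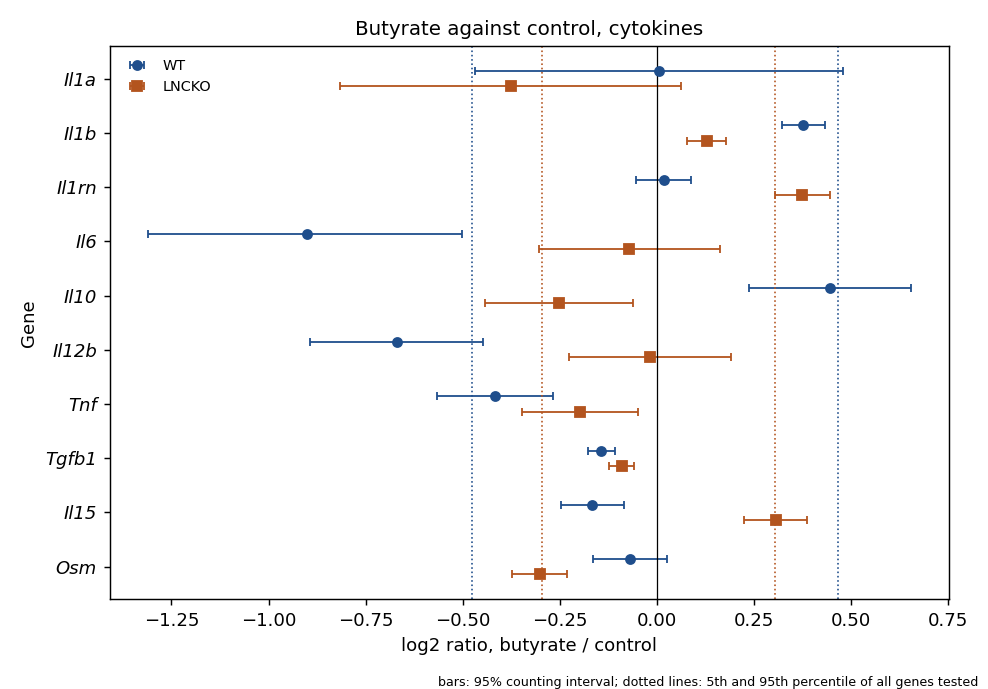
Log2 ratio of butyrate to control for the 10 cytokines in WT (circles) and LNCKO (squares), from 1 library per group, with 95% counting intervals; dotted lines mark the 5th and 95th percentiles of all genes tested. Il6 and Il12b lie at -0.90 and -0.67 in WT and near 0 in LNCKO, and Il10 and Il15 lie on opposite sides of 0 in the 2 genotypes.

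Between genotypes, 2 of the 10 cytokines (Il6 and Osm) were at least 1.5-fold higher in LNCKO without butyrate, where 1.57% of the 11077 genes tested were higher and 1.93% lower, and 0 were lower. With butyrate the same genes, 2 of the 10, were higher and 0 lower, where 3.32% of genes were higher and 3.15% lower. Past 2-fold, Il6 was the 1 cytokine in each comparison, and was higher, where 0.451% of genes were higher and 0.749% lower without butyrate, and 0.993% and 0.903% with butyrate. The median log2 ratio of the 10 was 0.18 without and 0.11 with butyrate, and 0.04 and 0.14 without Il1a, which had a mean under 100 fragments, against 0.02 and 0.053 over all genes tested. Each library enters 2 of the 4 comparisons, so these values are not independent of one another.

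**Figure D3:**
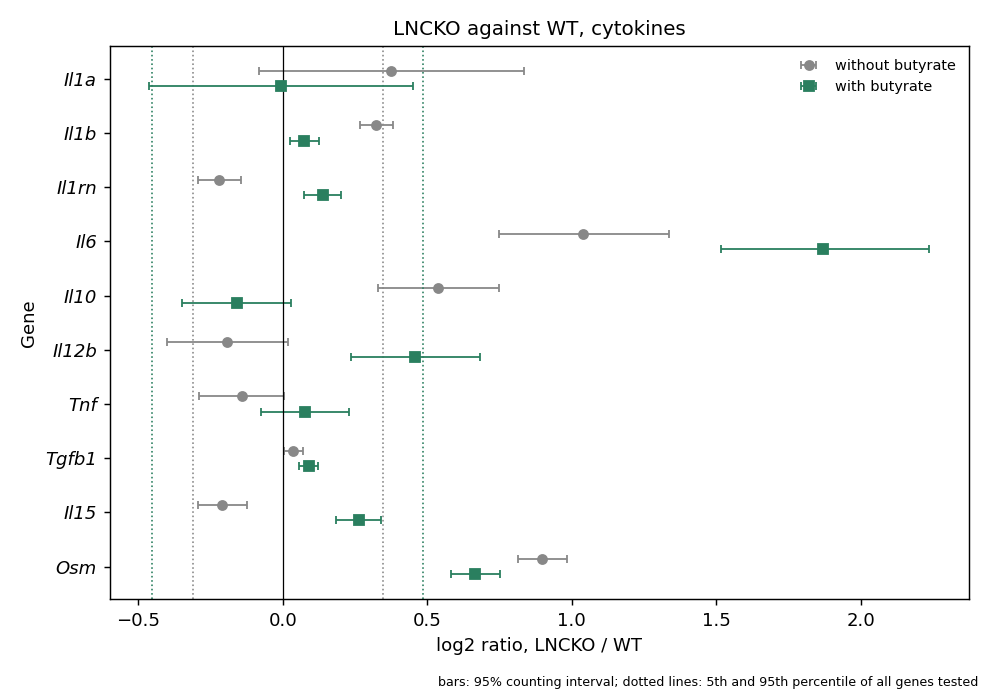
Log2 ratio of LNCKO to WT for the 10 cytokines without butyrate (circles) and with butyrate (squares), from 1 library per group, with 95% counting intervals; dotted lines mark the 5th and 95th percentiles of all genes tested. Il6 (1.04 and 1.87) and Osm (0.90 and 0.67) lie beyond the 95th percentile in both comparisons, and Il10 (0.54) and Il1a (0.37, with an interval that holds 0) do so without butyrate.

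Markers of other cells moved with genotype in these cultures. All 5 tested markers of mast cells and basophils were higher in LNCKO, with a median log2 ratio of 0.61 without and 0.98 with butyrate, and the sum of the 6 markers was 121 and 93.2 fragments per 1000000 for WT and 189 and 190 for LNCKO, with none at 0. Erythroid markers were higher too, in 3 of 3 tested, with a median log2 ratio of LNCKO to WT of 1.94 without and 3.37 with butyrate, and Hbb-bs was not listed. In sum, stromal markers were lower in both LNCKO libraries than in both WT libraries. They had 220 and 193 per 1000000 in WT and 64.2 and 137 in LNCKO, with none at 0. Their median log2 ratio of LNCKO to WT was -1.185 without butyrate (6 of 6 lower) and -0.36 with it (5 of 6 lower). The B cell markers were lower with butyrate in WT in 7 of 7 cases, with a median log2 ratio of -0.40. Markers of granulocytes and their precursors were higher with butyrate in WT in 7 of 10 cases, with a median log2 ratio of 0.16. In LNCKO they were lower with butyrate in 7 of 10 cases, with a median of -0.04. Of 8 T and NK cell markers, 6 (Cd3d, Cd3e, Cd3g, Cd8a, Gzma and Klrb1c) were higher in both LNCKO libraries than in both WT libraries, with sums of 8.55 and 6.38 per 1000000 for WT and 12.8 and 14.9 for LNCKO and with Gzma at 0 in WT butyrate. The sum of all 8 was between 73.9 and 84.6 per 1000000, most of it from Cd4 and Nkg7. The part of these cells in the values of Il6, Osm, the other cytokines and the cytokine receptors was not tested.

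The 19 genes of the cytokine receptors all had a mean of at least 100 fragments. With butyrate, 4 of 19 passed 1.5-fold in WT, with Il12rb1 and Osmr higher and Il12rb2 and Tgfbr1 lower, where 3.3% of all genes tested were higher and 2.92% lower. In LNCKO, 2 of 19 did so, Osmr higher and Il12rb2 lower, where the shares were 1.64% and 0.885%. The medians were 0.02 and 0.05 on the log2 scale. Il12rb1, the subunit shared by the IL-12 and IL-23 receptors, had 1407 fragments without and 2741 with butyrate in WT, and 1698 and 2112 in LNCKO. It was 1.86-fold higher with butyrate in WT (1.74 to 1.98), and in LNCKO the log2 ratio was 0.02 (-0.07 to 0.11). WT butyrate thus had the highest Il12rb1 and the lowest Il12b of the 4 libraries. Il12rb2, the subunit specific to IL-12, had 79 to 173 fragments and was 1.87-fold lower with butyrate in WT and 2.08-fold lower in LNCKO.

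Osmr, the signalling subunit for oncostatin M, had few fragments, with 83 fragments without and 205 with butyrate in WT, and 50 and 141 in LNCKO. It was higher with butyrate in both genotypes, 2.35-fold in WT (1.81 to 3.07) and 2.3-fold in LNCKO (1.65 to 3.24), and lower in LNCKO where Osm was higher, by 1.57-fold without and 1.61-fold with butyrate. Stromal markers, which mark cells that carry this receptor, had a median log2 ratio with butyrate of 0.05 in WT and 1.04 in LNCKO, where 6 of 6 were higher. Between genotypes, these markers had a median log2 ratio of LNCKO to WT of -1.185 without butyrate (6 of 6 lower) and -0.36 with it (5 of 6 lower). The part of stromal cells in the values of Osmr was not tested. The related subunit Lifr had log2 ratios with butyrate of -0.49 (-0.56 to -0.42) in WT and 0.09 (0.02 to 0.16) in LNCKO. Il6st, which encodes gp130, was 1.22-fold higher with butyrate in WT (1.19 to 1.24) and had a log2 ratio of 0.02 (-0.01 to 0.06) in LNCKO. Il6ra, the IL-6 binding subunit, had log2 ratios of -0.14 in WT and 0.07 in LNCKO.

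Of the receptors for TGF-β1, the kinase subunit Tgfbr1 had 5121 fragments without and 3234 with butyrate in WT, and 4572 and 5147 in LNCKO. It was 1.66-fold lower with butyrate in WT, a log2 ratio of -0.73 (-0.80 to -0.67), against -0.13 (-0.18 to -0.07) in LNCKO. WT butyrate was the low library, while Tgfbr2, which binds the ligand, had log2 ratios of 0.00 in WT and 0.09 in LNCKO, and the co-receptor Tgfbr3 had 0.02 and 0.22. Both TNF receptors were abundant, with exon-length levels of 68.5 to 77.3 for Tnfrsf1a and 145 to 186 for Tnfrsf1b. The log2 ratios with butyrate of Tnfrsf1b were 0.26 in WT and 0.04 in LNCKO, and those of Tnfrsf1a were 0.07 and -0.09. Il10ra and Il10rb, the IL-10 receptor chains, had log2 ratios of 0.16 and 0.11 in WT and 0.05 and 0.03 in LNCKO. For the chains that IL-15 shares with IL-2, Il2rg had 0.26 in WT and -0.04 in LNCKO, and Il2rb had -0.22 and -0.54. Il2rb was also 1.9-fold higher in LNCKO than in WT without butyrate (1.66 to 2.18) and 1.53-fold higher with butyrate (1.32 to 1.77), from 304 to 607 fragments, and was the 1 receptor of 19 that was at least 1.5-fold higher in either genotype comparison, where 1.57% of all genes tested were so without and 3.32% with butyrate. T and NK cells carry this chain, and 6 of their 8 markers were higher in both LNCKO libraries than in both WT libraries. Among these, Cd3e had 43 and 20 fragments in WT and 101 and 110 in LNCKO. Gzma had 11 and 0 against 42 and 30, and Klrb1c had 31 and 14 against 62 and 53. Cd4 went the other way, with an FPKM of 2.56 and 2.54 in WT and 1.93 and 2.17 in LNCKO. Nkg7 was mixed, with 10.5 and 15.6 against 13.3 and 11.9. Scaled to library size, the sum of all 8 was lower in both LNCKO libraries than in both WT libraries. The part of T and NK cells in the result was not tested.

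**Figure D4:**
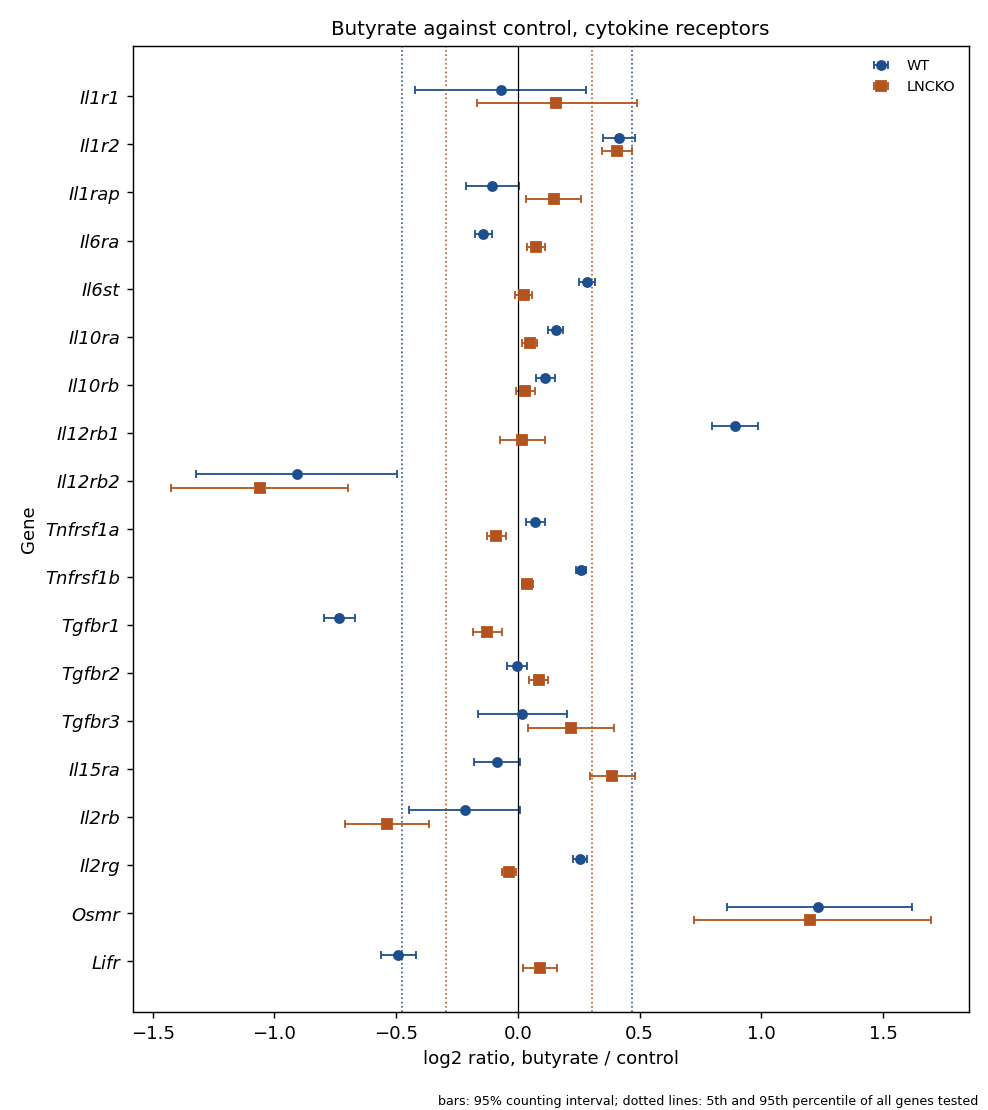
Log2 ratio of butyrate to control for 19 cytokine receptor genes in WT (circles) and LNCKO (squares), from 1 library per group, with 95% counting intervals; dotted lines mark the 5th and 95th percentiles of all genes tested. Il12rb2 and Osmr lie on the same side in both genotypes, and Il12rb1 (0.89), Tgfbr1 (-0.73) and Lifr (-0.49) lie apart from 0 in WT and near 0 in LNCKO.

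Of 16 related cytokines and release factors, 12 could be tested, and with butyrate 2 were at least 1.5-fold higher and 1 lower in WT, against 2 higher and 0 lower in LNCKO. The shares of all genes tested were 3.3% higher and 2.92% lower in WT, and 1.64% and 0.885% in LNCKO. Ltbp3, which encodes a protein that holds latent TGF-β in the matrix, had 380 fragments without and 1303 with butyrate in WT, and 289 and 457 in LNCKO, and was 3.27-fold higher with butyrate in WT (2.91 to 3.67) and 1.29-fold higher in LNCKO (1.11 to 1.5). Lrrc32, which anchors latent TGF-β at the cell surface, had 103, 220, 59 and 88 fragments in the same order and was 2.03-fold higher in WT (1.6 to 2.6). For Tgfb3, another TGF-β ligand, the log2 ratio was -0.73 in WT (-0.91 to -0.56) and -0.31 in LNCKO (-0.45 to -0.17). In LNCKO the 2 higher genes were Ltbp1, related to Ltbp3, with a log2 ratio of 0.79 (0.49 to 1.10) against 0.12 in WT, and Lif, a cytokine of the IL-6 family, with 0.66 (0.29 to 1.03) against 0.23. Stromal cells also make the latent TGF-β binding proteins, and their markers stood as given above. Il12a, the partner of Il12b in IL-12, had more than the level of Il12b in each library, with Il12b at 0.604, 0.518, 0.453 and 0.415 of its exon-length level in the order WT without and with butyrate and LNCKO without and with butyrate. Its log2 ratio with butyrate was -0.45 in WT (-0.63 to -0.27) and 0.11 in LNCKO (-0.04 to 0.26). Il12a was picked after its values were seen, as the partner subunit.

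Of the 12 genes of signalling and feedback, none passed 1.5-fold in any of the 4 comparisons. Among all genes tested, between 0.885% and 3.32% did so in each direction taken alone, higher or lower. The medians of the 12 genes with butyrate were -0.10 in WT and 0.05 in LNCKO. Jak2, a kinase of cytokine receptors, had -0.40 in WT and -0.03 in LNCKO. Myd88, the adaptor of IL-1 and Toll-like receptors, had -0.18 and 0.05, and Nfkbia, an inhibitor of NF-κB, had -0.16 and 0.15. Irak3, which dampens IL-1 receptor signalling, had -0.06 in WT and -0.21 in LNCKO, and Socs1, an inhibitor of JAK kinases, had -0.12 and 0.21.

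As ZFP36 acts through AU-rich elements, the 3′ untranslated regions of the cytokines were searched for TATTTAT, the letters such proteins bind. The search covered the GENCODE transcript of each gene with the longest coding sequence (GRCm38), and other transcripts of a gene were not searched. The letters TATTTAT were found 8 times in Tnf, 4 times in Il10, 3 times each in Il1a, Il1b and Osm and once each in Il6 and Il12b. They were not found in the regions searched for Il1rn, Tgfb1 and Il15. Among regions of a length within 20% of that of the gene, 19.2% held them for Tnf, 18.5% for Il10, 27.2% for Il1a, 11.2% for Il1b, 25.1% for Osm, 10.4% for Il6 and 19.3% for Il12b. For the genes without them, the shares were 31.9% for Il1rn, 3.22% for Tgfb1 and 6.81% for Il15. Of the 10 genes, Tnf alone held the longer TTATTTATT, 5 times, as did 4.38% of regions of its length. One 30-base window is shown for each of the 7 genes with these letters, in the sense of the transcript and with each ATTTA in capitals, and further sites of a gene can lie outside it.
Tnf, chr17:35199679-35199708, - strand: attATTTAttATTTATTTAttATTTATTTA
Il1b, chr2:129364808-129364837, - strand: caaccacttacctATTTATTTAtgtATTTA
Il1a, chr2:129300109-129300138, - strand: attttatctatgtATTTAtaaatatATTTA
Il6, chr5:30019716-30019745, + strand: actttaagttaATTTAtgattgatATTTAt
Il12b, chr11:44413473-44413502, + strand: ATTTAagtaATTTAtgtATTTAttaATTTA
Il10, chr1:131024373-131024402, + strand: ctcgtttgtacctctctccgaaatATTTAt
Osm, chr11:4240939-4240968, + strand: aatccgttttatATTTAtaaggcctATTTA

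The 7 genes with these sites did not differ in one direction. With butyrate in WT, Il6, Il12b and Tnf were lower, Il1b and Il10 were higher, and Osm and Il1a had intervals that held 0. In LNCKO, Tnf, Il10 and Osm were lower, Il1b was higher, and Il6, Il12b and Il1a had intervals that held 0. Among the genes without sites, Tgfb1 was lower in both genotypes. Il15 was lower in WT and higher in LNCKO, and Il1rn was higher in LNCKO with an interval that held 0 in WT. The part of the sites in these values was not tested. Zfp36 itself had 30565 fragments without and 26769 with butyrate in WT, and 31539 and 37255 in LNCKO. Its log2 ratio with butyrate was -0.26 in WT (-0.29 to -0.24) and -0.06 in LNCKO (-0.08 to -0.03), and that of LNCKO to WT was 0.13 without and 0.33 with butyrate. The related Zfp36l1 was higher with butyrate in WT, with 0.31 (0.28 to 0.33), against 0.04 in LNCKO. Zc3h12a, which encodes a ribonuclease of cytokine mRNAs, had -0.22 in WT and -0.04 in LNCKO. None of the 6 mRNA decay genes passed 1.5-fold in any comparison, beside the same 0.885% to 3.32% of all genes in each direction taken alone.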

How the data were processed

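RNA of 4 BMDM libraries was analysed, 1 per group, grouped by genotype and treatment in the labels. The authors deposited FPKM values and no counts. The methods name TRIzol and 100-bp paired-end reads on MGISEQ-2000, while RNeasy extraction and TruSeq libraries for Illumina are given in the labels. The submitters' processing notes list STAR 2.5.0c, Picard 1.126, bedtools 2.17.0, HTSeq 0.6.0 and DESeq2 3.0 with GRCm38 and mm10, without their roles.

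Fragments were recovered as FPKM times the whole gene span of GENCODE M21 and a library total searched for each library. They were whole, within 0.01, in all 4 libraries for 16076 of 16342 matched genes (98.4%), and for all 10 cytokines. With exon lengths, 6.88% were whole. Depth was 53363944 to 65521713 fragments, which are paired reads without molecular identifiers, so that the 95% intervals (exact Poisson for levels, Clopper-Pearson for ratios) cover counting error only. Changes are log2 ratios of FPKM without a pseudocount. Genes tested had whole fragments, a mean of at least 100 and at least 10 in both libraries.

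The cytokines and lists were chosen with earlier results of these data known. All cytokines and receptors are named, as are the 3 genes of each other list with the largest change in WT and in LNCKO. Alternatives were pseudocounts of 0.1 and 1, median-ratio scaling, rescaling to 1000000 and other filters. Steps were tested on simulated data with Python 3.11.15, numpy 2.4.6, pandas 2.3.3, scipy 1.17.1 and matplotlib 3.10.9. A result on 1 cell type marker is not reported here.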

Additional observations from a re-analysis of the deposited data

Results flagged for a closer look

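The butyrate response of Il10 and of Il15 had opposite directions in the genotypes, with counting intervals on opposite sides of 0. For Il10 the log2 ratio was 0.45 in WT and -0.25 in LNCKO, a difference (WT minus LNCKO) of 0.70. For Il15 it was -0.17 in WT and 0.31 in LNCKO, a difference of -0.47. With 1 library per group, neither difference was tested against variation between cultures.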

How the results depend on the processing

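Settings were varied for the changes of the 10 cytokines, for the medians of 5 gene lists and for the counts of genes past each fold. Of 200 values of cytokines, 196 kept their direction, including 36 of 36 past 1.5-fold, and 179 moved by less than their counting interval. Of the 21 that moved further, 16 did so with 1 added to each FPKM. Those that turned were within 0.02 of 0 and belonged to Il1a, Il1rn and Il12b, under rescaling to 1000000 or median-ratio scaling. All 100 medians stayed within 0.2, but without a minimum on the mean that of the cytokines for LNCKO against WT control went from 0.04 to 0.18. Counts of genes past 1.5-fold and 2-fold stayed within 1.5 times under both scalings and moved with each pseudocount and filter. They follow, higher and lower, for butyrate in WT, butyrate in LNCKO, LNCKO against WT control and LNCKO against WT butyrate. Past 2-fold, the counts given as shares in the report were 112 and 76, 75 and 30, 50 and 83 and then 110 and 100. With 0.1 added to each FPKM, they were 48 and 29, 29 and 12, 20 and 29 and then 54 and 46. With 1 added, they were 18 and 6, 7 and 5, 11 and 6 and then 15 and 17. With a mean of at least 1000 fragments, they were 18 and 15, 14 and 6, 10 and 14 and then 28 and 22. With genes of mean FPKM 1 or more, they were 29 and 17, 16 and 5, 11 and 13 and then 32 and 29. Without a filter on the mean, they were 625 and 451, 471 and 368, 431 and 524 and then 479 and 639. Past 1.5-fold, the counts given as shares in the report were 365 and 323, 182 and 98, 174 and 214 and then 368 and 349. With 0.1 added to each FPKM, they were 182 and 143, 77 and 33, 80 and 89 and then 191 and 173. With 1 added, they were 58 and 33, 25 and 9, 21 and 23 and then 53 and 53. With a mean of at least 1000 fragments, they were 58 and 79, 25 and 13, 27 and 30 and then 108 and 60. With genes of mean FPKM 1 or more, they were 91 and 74, 40 and 17, 46 and 35 and then 117 and 88. Without a filter on the mean, they were 1216 and 982, 898 and 694, 820 and 958 and then 1030 and 1249. In WT, rescaling to 1000000 per library shifted the genes past 1.5-fold with butyrate from 365 higher and 323 lower (53.1% higher) to 309 and 428 (41.9%), as it moved the median of all genes from -0.056 to -0.111. Why the counts moved was not tested beyond the settings themselves, which shrink ratios of low genes or test fewer or more genes.

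No paired analysis was possible because each group has 1 library, and leaving out a library would empty its group. Depth limits the values of genes with few fragments, such as Il1a, Il6, Osmr, Il12rb2, Il1r1, Lif and Lrrc32.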
